A study of Arabidopsis thaliana with 21 samples.

Results

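A series of Arabidopsis thaliana lines runs from the wild type through 3 AtNEET-H89C lines with increasing AtNEET mRNA. The genes described here are those whose mean level on a log2 scale was higher at every step of it. They were selected on measured values: the mean of log2(normalized count + 1) had to be at least 0.3 higher in H89C23-10 than in Col, at least 0.3 higher in H89C11-7 than in H89C23-10, and at least 0.3 higher in H89C4-7 than in H89C11-7. A normalized count of at least 10 in 3 or more libraries was also required, and AtNEET itself was left out. The rule kept 89 of 20699 tested genes, or 0.43%, while 115 genes were lower by 0.3 or more at each of the same steps. Because Col and the H89C lines chose the members, their values in those 12 libraries are a description without a test. The question put to the data was how the same 89 genes stood in 3 lines named NEET, whose libraries the rule did not read.

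Whole seedlings were harvested at 7 days from liquid culture in MS medium at reduced strength, and each of 7 groups has 3 libraries. Col is the wild type. H89C23-10, H89C11-7 and H89C4-7 are lines of the dominant-negative AtNEET-H89C form, and NEET11-9, NEET5-4 and NEET10-10 are lines of the protein named without that change. Promoter, tag and insertion site are not named in the labels for any line. Nor do they state that a line's 3 libraries are from different cultures, so the spread behind the p-values is that among libraries and could be technical.

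AtNEET belongs to the NEET family, small proteins that hold a labile iron-sulfur cluster and can pass it on. Iron-sulfur clusters serve electron transfer and catalysis in chloroplasts, mitochondria and the cytosol. The histidine named in H89C is a ligand of the cluster, and its replacement by cysteine is known to make the cluster of NEET proteins more stable.

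Library depth ran from 17879843 to 24684401 recovered reads, except for Col replicate 3 with 8237916, where 1 read counts for 2.45 normalized counts. The first Col library and the first NEET10-10 library stood apart from the others of their groups. The chi-square per degree of freedom was 8.17 to 15.1 for pairs that held either of them and 1.41 to 2.8 for all other replicate pairs. The summed level of 10 leaf photosynthesis genes was 993000 to 1060000 normalized counts in Col, 849000 to 886000 in H89C23-10, 729000 to 785000 in H89C11-7, 750000 to 830000 in H89C4-7, 991000 to 1030000 in NEET11-9, 824000 to 896000 in NEET5-4 and 682000 to 749000 in NEET10-10. The summed level of 10 root hair and endodermis genes was 2350 to 2680 in Col, 1260 to 1640 in H89C11-7, 1130 to 1600 in H89C4-7 and 2250 to 3180 over the 3 NEET lines. Defining markers of leaf and root were thus present in every group of these whole seedlings, and 5 pollen genes summed to at most 20.0. In bulk tissue, fewer cells of a type and less RNA per cell cannot be told apart, and the part of these shifts in the results below was not tested.

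AtNEET (AT5G51720) gives the order of the lines. It was at 261 ± 93.9 normalized counts in Col (mean ± SD over 3 libraries, as for all such values here), 1300 ± 74.0 in H89C23-10, 2380 ± 110 in H89C11-7 and 16100 ± 895 in H89C4-7. The 3 steps were thus 5.16-fold, 1.83-fold and 6.76-fold, and the table does not separate the H89C transcript from the plant's own. Among the NEET lines, AtNEET was at 332 ± 5.78 in NEET11-9, 18200 ± 528 in NEET5-4 and 32800 ± 1900 in NEET10-10. The NEET11-9 libraries, at 330, 338 and 327, fell between the lowest and highest of the Col libraries, at 367, 186 and 230, so NEET11-9 serves below as the low end of the NEET series. NEET5-4 lay 1.13-fold above H89C4-7, and NEET10-10 lay 1.8-fold above NEET5-4.

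Across the H89C lines the members differed widely in the size of their steps. The median step was log2 0.54 from Col to H89C23-10, 0.67 from H89C23-10 to H89C11-7 and 1.41 from H89C11-7 to H89C4-7. The last step was the largest for 64 members, the middle step for 14 and the first for 11. In 33 members all 12 libraries stood in the order of the groups with no overlap. The rule chose on these same libraries and the share of all tested genes was not counted, so this number is only a description. From Col to H89C4-7 the median difference was log2 2.88, or 7.34-fold, between 1.26 for AT5G37750, a DnaJ-domain protein, and 9.74 for ELI3-2. SESA1, which has no read in Col, was at log2 3.56 or more at the bound that 3 reads per library allow. That bound is above the median, so the median could not change with it. Members with few reads in Col were left as measured. Of the 89 genes, 85 are annotated as protein-coding and 2 as long noncoding RNAs. The other 2 lie on the chloroplast genome and had no annotation in the reference used, so their type was not counted. They are spread over the nuclear chromosomes, with 25 on chromosome 1, 15 on chromosome 2, 16 on chromosome 3, 13 on chromosome 4 and 18 on chromosome 5.

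**Figure D1:**
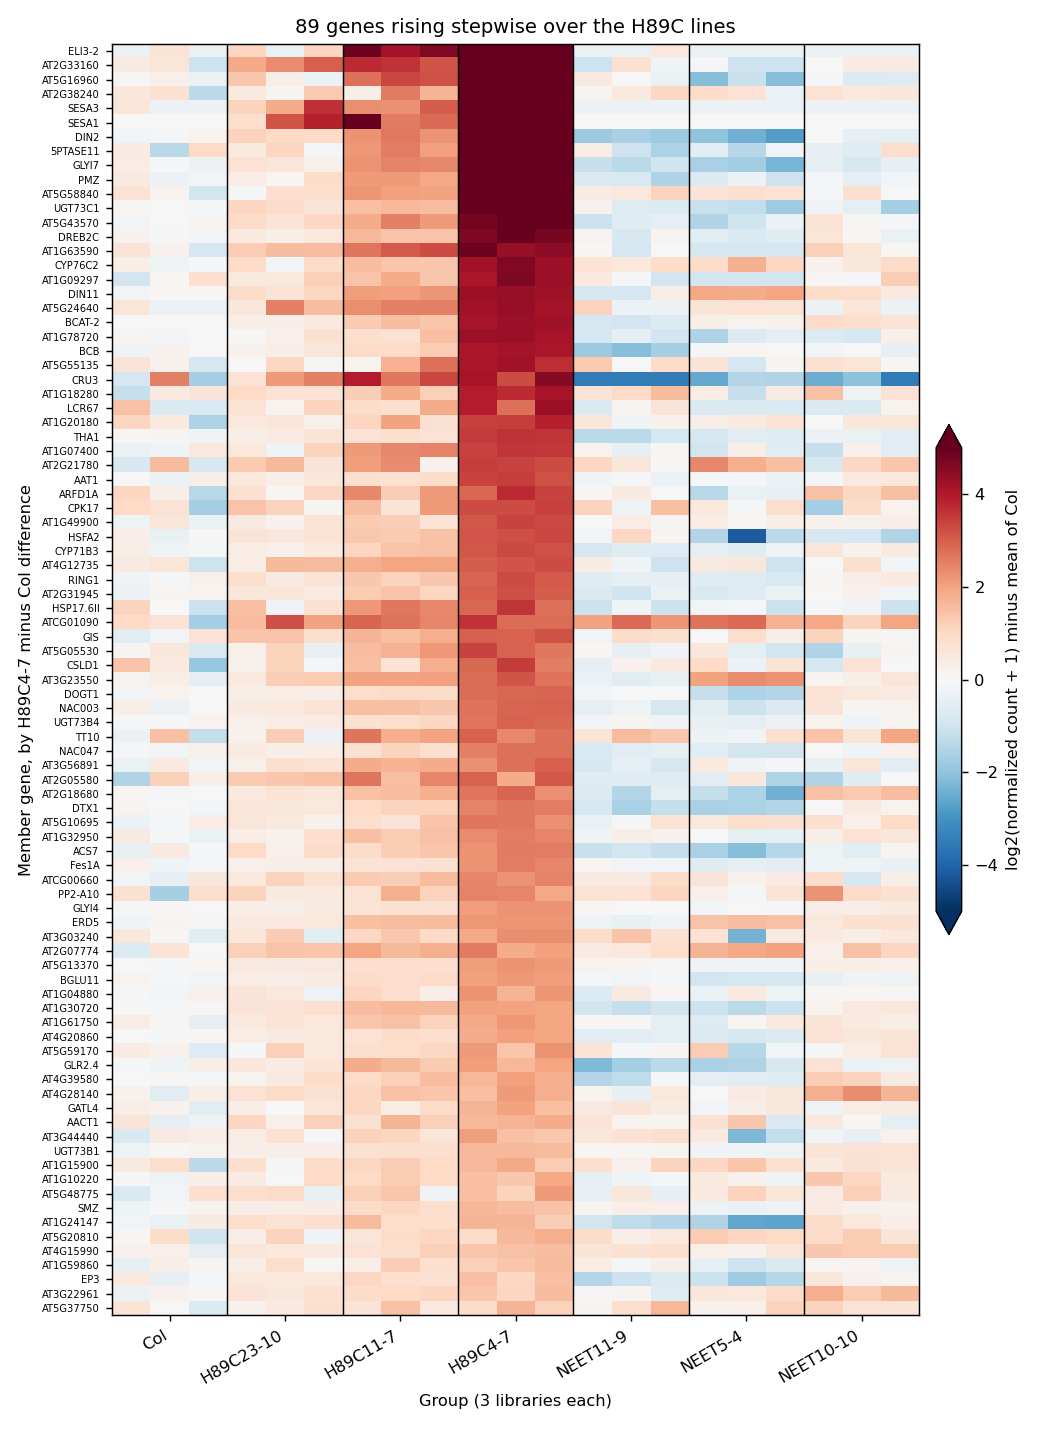
Difference of each library from the Col mean in log2(normalized count + 1), for 89 genes (vertical axis, ordered by H89C4-7 minus Col) in 21 libraries of 7 groups (horizontal axis); colours end at 5 in either direction. The H89C blocks darken from left to right because the rule chose the genes so, and the 3 NEET blocks do not darken in that way, with member medians of -2.1%, -9.7% and 9.7% of the span from Col to H89C4-7. The rule chose on both ends of that span, so these medians are a description.

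In the NEET lines most members lay far from their H89C4-7 level, which the rule chose to be high, so that distance is a description. More members were called higher than lower in the line with the most AtNEET against the line with the least. Differences were tested with limma on all tested genes and called at a Benjamini-Hochberg adjusted p under 0.05. Between NEET10-10 and NEET11-9, 33 of the 89 members were called higher, where 14.3% of all tested genes were, and 1 was called lower, where 13.7% were. The median difference of the members was log2 0.36, against -0.006 for all tested genes. Without the first libraries of Col and NEET10-10, the counts were 32 higher and 2 lower.

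NEET5-4 gave another picture. Against NEET11-9, 8 members were called higher, where 11.6% of all tested genes were, and 17 were called lower, where 14.2% were, with a median of log2 -0.15 against 0.006. These were 9.0% and 19.1% of the members, shares that also count members too low in the NEET lines to be called. A mean under 10 normalized counts in every NEET line was found for 34 members. Without the H89C4-7 libraries, 68 of the 89 passed the filter on low values, but a member such as ELI3-2 can still pass it through H89C11-7 alone. With at least 50 required in 3 or more of all 21 libraries, 53 members were left, of which 6 were called higher and 17 lower. The H89C4-7 libraries alone can pass a member there, and the share of all genes called under that filter was not counted. Between NEET10-10 and NEET5-4, 37 members were called higher, where 15.8% of all tested genes were, and 4 were called lower, where 12.4% were. Their median was log2 0.47 against -0.009, and the counts were 29 and 3 without the first libraries of Col and NEET10-10. AtNEET itself was 54.6-fold higher in NEET5-4 than in NEET11-9. At that step the members as a set showed no rise. Of the 89, 64 were not called in either direction, near the share of all tested genes that the 11.6% and 14.2% called there leave. That count is therefore no result about the members.

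**Figure D2:**
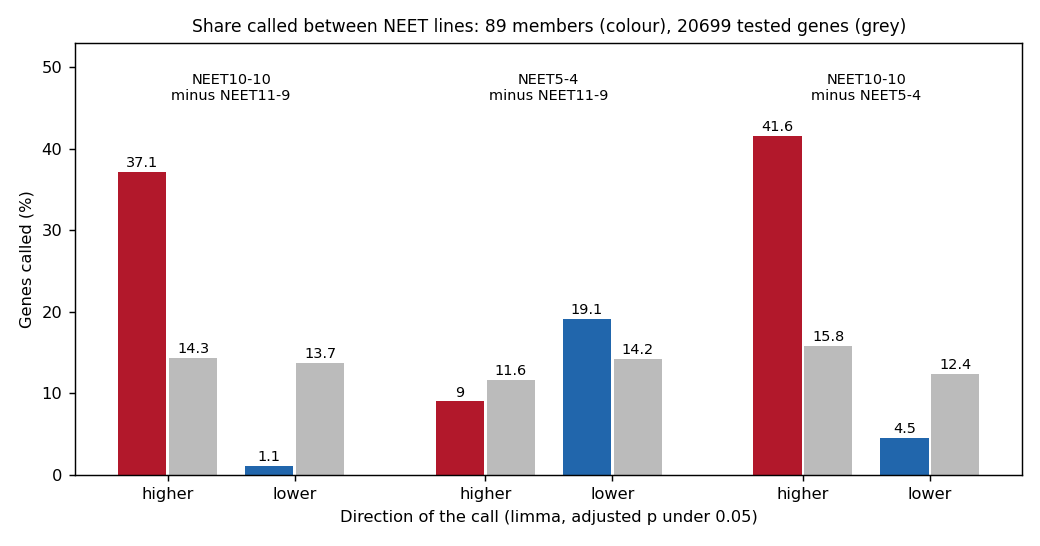
Share of genes called (vertical axis, percent) in each direction (horizontal axis) for 3 comparisons between NEET lines, with the 89 members in colour and all 20699 tested genes in grey. Members called higher in NEET10-10 reach 37.1% against NEET11-9 and 41.6% against NEET5-4, and for NEET5-4 against NEET11-9 they are 9.0% higher and 19.1% lower; members too low in the NEET lines to be called count in every share.

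A difference of at least 0.3 upward at both NEET steps, the step size of the rule, was met by 6 members, or 6.74%, where 1.02% of all tested genes met it. These were BCAT-2, AT1G10220, AT3G22961, PMZ, GLR2.4 and AT4G39580. Only BCAT-2 and AT3G22961 were also called at both steps by limma, and AT3G22961 lost the first call in DESeq2 (adjusted p = 0.0976). The first step was not called for AT1G10220, PMZ, GLR2.4 and AT4G39580 (limma adjusted p from 0.281 to 0.414), nor the second for PMZ (0.156). GLR2.4 was at means of only 1.66 in NEET11-9 and 2.62 in NEET5-4. In the combined calls against NEET11-9, 46 members were called in neither NEET5-4 nor NEET10-10, 18 were higher in NEET10-10 alone, 7 were higher in both lines, and 8 were higher in NEET10-10 but lower in NEET5-4. A further 8 were lower in NEET5-4 alone, 1 was higher there alone, and 1 was lower in both lines. These combined calls were not counted over all tested genes, so whether they are particular to the members cannot be read from them. In every NEET line, 34 members had a mean under 10 normalized counts, where differences are hard to detect at this depth.

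Set on the scale that runs from the Col mean at 0% to the H89C4-7 mean at 100%, the members' median was -2.1% in NEET11-9, -9.7% in NEET5-4 and 9.7% in NEET10-10. At or above the H89C4-7 mean stood 0 members in NEET11-9, 0 in NEET5-4 and 2 in NEET10-10. Below the Col mean stood 50, 57 and 27 members in the same order of lines. The rule chose members on both ends of this scale, low in Col and highest in H89C4-7, so these positions are a description.

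Against Col, the contrasts share the Col libraries with the rule, so the following counts are a description and support nothing. NEET11-9 had 2 members called higher, where 4.49% of tested genes were, and 22 called lower, where 6.44% were. NEET5-4 had 10 called higher, where 14.1% were, and 31 called lower, where 16.9% were. NEET10-10 had 19 called higher, where 15.6% were, and 6 called lower, where 14.7% were. H89C4-7 had all 89 called higher, where 33.6% of tested genes were; the rule asked for differences of means and not for a call, but it chose on the same libraries. The 3 NEET medians against Col were log2 -0.06, -0.30 and 0.30 in the order NEET11-9, NEET5-4 and NEET10-10.

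The members were sorted by hand into groups of known role after the list was seen, so the groups carry counts and no test. The counts of each role and list below stand against the shares of all tested genes: 14.3% higher and 13.7% lower in NEET10-10 against NEET11-9, 11.6% and 14.2% in NEET5-4 against NEET11-9, and 15.8% and 12.4% in NEET10-10 against NEET5-4. The 6 genes of starvation and amino acid use held most of the members that were higher in both upper NEET lines. All 6 were called higher in NEET10-10 than in NEET11-9, with a median of log2 1.09, and 4 were called higher in NEET5-4, with 1 lower and a median of 0.79.

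BCAT-2 (AT1G10070, chr1:3288087-3290471), an aminotransferase of branched-chain amino acids, was at 367, 359 and 353 normalized counts in Col, 453, 448 and 505 in H89C23-10, 884, 1060 and 936 in H89C11-7, and 6250, 7090 and 6770 in H89C4-7. In the NEET lines it was at 193, 184 and 225 in NEET11-9, 440, 410 and 417 in NEET5-4, and 698, 652 and 566 in NEET10-10. No NEET group overlapped another, and the lowest lay under Col while the highest stayed under H89C11-7. BCAT-2 was 2.1-fold higher in NEET5-4 than in NEET11-9 (log2 1.07 ± 0.08, with the standard error as for all such log2 differences here, limma adjusted p = 7.84e-11) and 3.17-fold higher in NEET10-10 (1.66 ± 0.08, limma adjusted p = 1.57e-14). Its step from NEET5-4 to NEET10-10 was 1.51-fold (0.59 ± 0.08, limma adjusted p = 2.41e-06).

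ERD5 (AT3G30775, chr3:12448636-12451556), the proline dehydrogenase that opens proline breakdown in mitochondria, was at 2080, 2580 and 2450 in Col, 3270, 3380 and 3440 in H89C23-10, 6760, 6920 and 7140 in H89C11-7, and 10700, 10900 and 10900 in H89C4-7. The NEET values were 2000, 1840 and 2010 in NEET11-9, 6420, 6790 and 6580 in NEET5-4, and 3400, 4070 and 3960 in NEET10-10. The NEET5-4 libraries thus overlapped those of H89C11-7 at their upper end, and the NEET10-10 libraries lay between the others. ERD5 was 3.38-fold higher in NEET5-4 than in NEET11-9 (log2 1.76 ± 0.06, limma adjusted p = 3.88e-17) and then 1.74-fold lower in NEET10-10 than in NEET5-4 (-0.80 ± 0.06, limma adjusted p = 2.18e-10).

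DIN11 (AT3G49620), a dark-induced member of the 2-oxoglutarate-dependent oxygenases, had the same order. It was at 29.5, 27.9 and 30.6 in NEET5-4, at 14.3, 13.8 and 9.83 in NEET10-10 and at 3.43, 3.35 and 8.97 in NEET11-9, against a Col mean of 7.04 ± 0.679 and an H89C4-7 mean of 157 ± 5.71. The rise in NEET5-4 over NEET11-9 was log2 2.39 ± 0.27 (limma adjusted p = 8.13e-08).

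DIN2 (AT3G60140, chr3:22216540-22220824), a beta-glucosidase switched on in darkness and sugar shortage, went the other way in NEET5-4. It was at 277, 294 and 341 in Col, 680, 608 and 598 in H89C23-10, 1460, 1880 and 1460 in H89C11-7, and 13900, 15200 and 15100 in H89C4-7. In the NEET lines it was at 84.9, 98.8 and 85.7 in NEET11-9, 73.7, 56.9 and 42.5 in NEET5-4, and 307, 229 and 217 in NEET10-10. DIN2 was 2.75-fold higher in NEET10-10 than in NEET11-9 (log2 1.46 ± 0.14, limma adjusted p = 8.93e-09) and 1.58-fold lower in NEET5-4 (-0.66 ± 0.14, limma adjusted p = 0.000774). In H89C4-7, where AtNEET mRNA was close to that of NEET5-4, the DIN2 mean was 14800 ± 742, against 57.7 ± 15.6 in NEET5-4.

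THA1 and AAT1 had smaller differences between the NEET lines. THA1, a threonine aldolase, was at a mean of 128 ± 26.1 in NEET11-9, 182 ± 21.1 in NEET5-4 and 221 ± 19.3 in NEET10-10, and rose by log2 0.79 ± 0.12 from the first to the last (limma adjusted p = 6.97e-06). AAT1, a carrier of cationic amino acids, was called higher in NEET10-10 than in NEET11-9 by 0.51 ± 0.15 (limma adjusted p = 0.0102) and in NEET5-4 differed by 0.03 ± 0.15. That call of AAT1 was lost without the second or the third NEET10-10 library.

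Other genes of the same pathways were read from lists chosen with earlier results in view. Of 22 further tested genes of the sugar starvation and darkness list, 19 were called higher and 2 lower in H89C4-7 than in Col, where 33.6% and 33.0% of all tested genes were, with a median of log2 1.2 against -0.001. The same 22 had 16 called higher and 4 lower in NEET10-10 against NEET11-9, and 16 higher and 6 lower in NEET5-4 against NEET11-9. Of 15 further genes of amino acid breakdown, 11 were called higher and 2 lower in H89C4-7, with 6 higher and 2 lower in both NEET10-10 and NEET5-4 against NEET11-9. Of 25 autophagy genes, none a member, 14 were called higher and 1 lower in H89C4-7, with a median of 0.23.

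**Figure D3:**
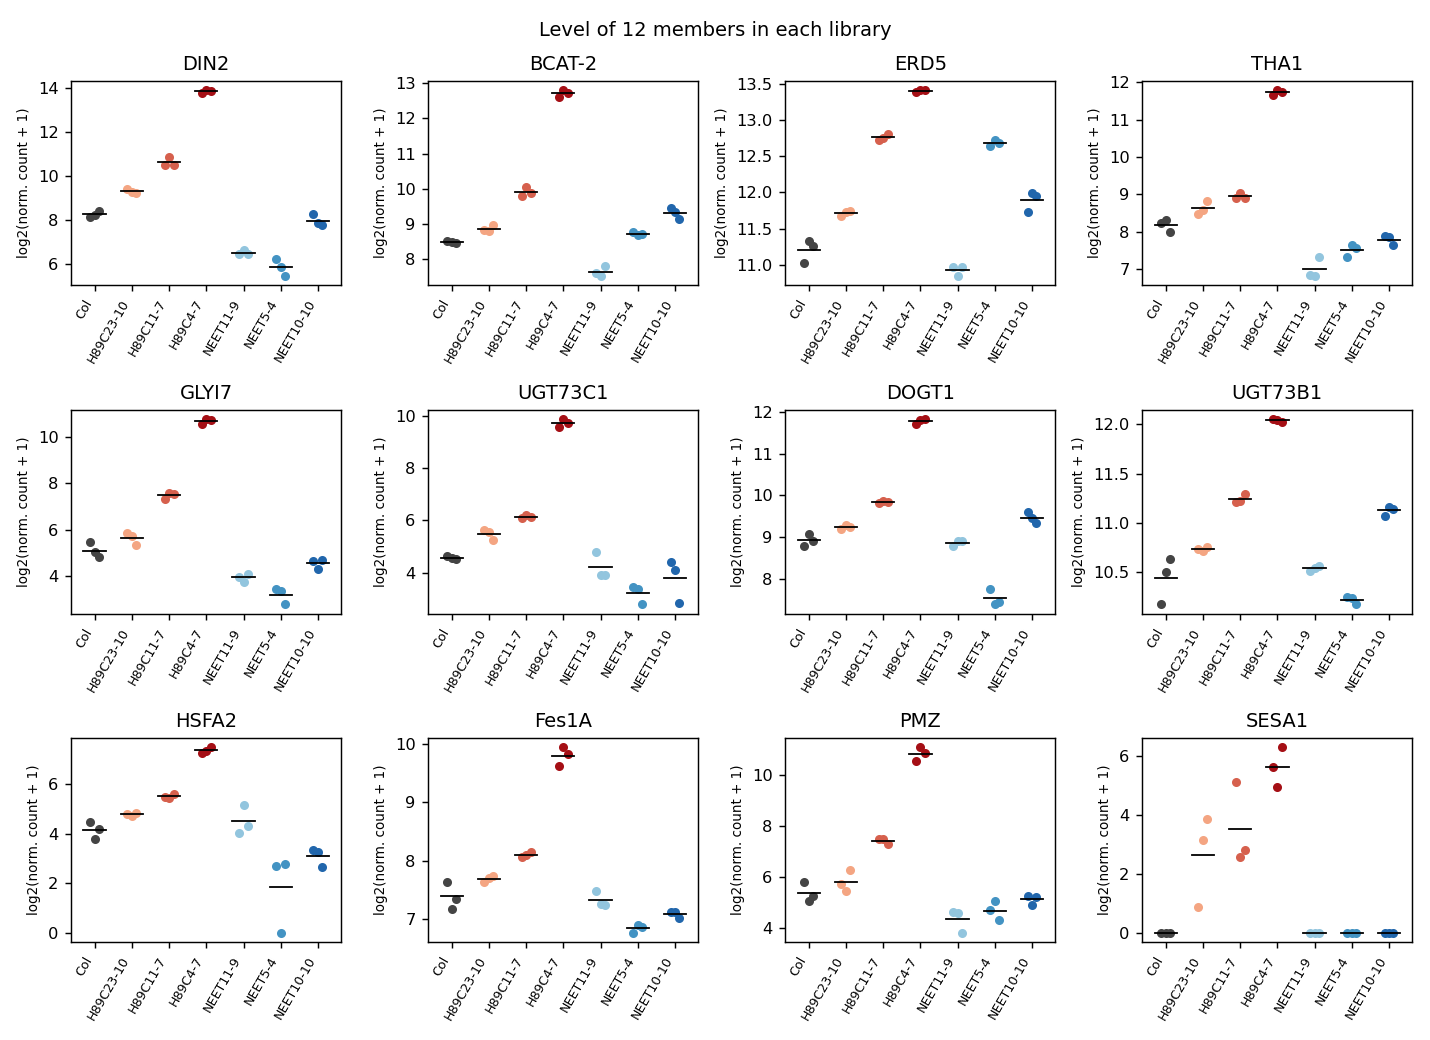
Level of 12 members in log2(normalized count + 1) (vertical axes, scaled to each gene) in each library, with the group mean as a bar, over Col, the 3 H89C lines and the 3 NEET lines (horizontal axis). DIN2, GLYI7 and DOGT1 dip in NEET5-4 below NEET11-9, ERD5 peaks there among the NEET lines, and SESA1 has no read in Col or in any NEET line.

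A group of 12 genes codes for detoxification enzymes and carriers, which modify reactive or foreign compounds or move them across membranes. Of these, 7 were called higher in NEET10-10 than in NEET11-9 and none lower, with a median of log2 0.47, while 1 was called higher and 6 lower in NEET5-4, with a median of -0.32. Against NEET5-4, NEET10-10 had 8 called higher and 1 lower.

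Among these, 4 members are glycosyltransferases of the UGT73 group, which attach sugars to small molecules. Upstream stretches of UGT73B1 and UGT73B4 are shown because both hold TGACGT, the core of the as-1 element bound by TGA factors in detoxification genes. The letters come from the RefSeq assembly TAIR10.1, 5′ to 3′ on each gene's own strand, and the capitals mark the motif. The UGT73B1 stretch is chr4:16350204-16350383 on the minus strand and the UGT73B4 stretch is chr2:6761455-6761634 on the plus strand, each ending at the base before the annotated start.
UGT73B1: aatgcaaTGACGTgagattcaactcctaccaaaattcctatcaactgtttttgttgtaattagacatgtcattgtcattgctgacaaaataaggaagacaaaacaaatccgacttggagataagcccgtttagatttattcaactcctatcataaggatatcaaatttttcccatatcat
UGT73B4: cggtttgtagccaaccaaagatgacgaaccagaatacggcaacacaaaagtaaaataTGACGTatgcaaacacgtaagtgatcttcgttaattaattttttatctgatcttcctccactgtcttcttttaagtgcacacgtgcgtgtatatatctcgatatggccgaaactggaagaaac
The motif lies 173 bases before the start in UGT73B1 and 123 bases before it in UGT73B4. It was found on either strand in 11 of 87 member promoters (250 bases before to 50 bases after the start), or 12.6%, and in 9.7% of the 20604 promoters of tested genes.

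UGT73B1 (AT4G34138, chr4:16347997-16350203) was at 1150, 1450 and 1580 in Col, 1700, 1680 and 1720 in H89C23-10, 2370, 2390 and 2500 in H89C11-7, and 4260, 4220 and 4150 in H89C4-7. Its NEET values were 1460, 1490 and 1510 in NEET11-9, 1210, 1200 and 1150 in NEET5-4, and 2150, 2290 and 2260 in NEET10-10. The 3 NEET groups did not overlap, and NEET10-10 came close to H89C11-7. UGT73B1 was 1.5-fold higher in NEET10-10 than in NEET11-9 (log2 0.59 ± 0.07, limma adjusted p = 2.16e-07) and 1.25-fold lower in NEET5-4 (-0.33 ± 0.07, limma adjusted p = 0.000687). AT4G34139, annotated on the opposite strand, overlaps 1015 of its bases, and their reads cannot be told apart without the strand setting of the counts.

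DOGT1 (AT2G36800, chr2:15423172-15425129), which glucosylates the fungal toxin deoxynivalenol and brassinosteroid hormones, was at 440, 539 and 476 in Col, 588, 624 and 607 in H89C23-10, 897, 930 and 911 in H89C11-7, and 3330, 3550 and 3650 in H89C4-7. It was at 437, 476 and 480 in NEET11-9, 216, 166 and 173 in NEET5-4, and 768, 703 and 644 in NEET10-10. NEET5-4 lay under every Col library and NEET10-10 over every one. The fall in NEET5-4 against NEET11-9 was 2.52-fold (log2 -1.33 ± 0.08, limma adjusted p = 2.20e-12), and NEET10-10 was 3.81-fold above NEET5-4 (1.93 ± 0.08, limma adjusted p = 9.30e-16).

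UGT73B4 and UGT73C1 were likewise lower in NEET5-4, but were not called in NEET10-10. UGT73B4 was at a mean of 239 ± 26.2 in NEET11-9 and 191 ± 11.3 in NEET5-4 (log2 -0.32 ± 0.11, limma adjusted p = 0.0288). The neighbouring UGT73B5 shares 90.8% identity over 1507 bases with it and its annotation covers it, and DOGT1 shares 90.9% over 1680 bases with UGT73C6, so reads may have been split between copies. UGT73C1 was at 26.6, 14.2 and 13.9 in NEET11-9 and 10.1, 9.31 and 5.93 in NEET5-4 (-0.99 ± 0.29, limma adjusted p = 0.0115). Single libraries decide both calls: UGT73B4 lost its call without the second NEET11-9 library (limma adjusted p = 0.181), the first NEET5-4 library (0.0679) or the second (0.112). UGT73C1 lost it without the first NEET11-9 library (limma adjusted p = 0.109) or the third NEET5-4 library (0.0797).

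GLYI7 (AT1G80160, chr1:30150897-30152614), annotated in the glyoxalase I family that removes methylglyoxal, was at 42.9, 32.1 and 27.0 in Col, 56.5, 52.0 and 40.1 in H89C23-10, 160, 192 and 182 in H89C11-7, and 1490, 1740 and 1660 in H89C4-7. It was at 14.6, 12.6 and 16.3 in NEET11-9, 10.1, 9.31 and 5.93 in NEET5-4, and 24.5, 18.9 and 25.0 in NEET10-10, so all 9 NEET libraries lay under the Col mean of 34.0 ± 8.13. The NEET10-10 rise over NEET11-9 (log2 0.62 ± 0.19, limma adjusted p = 0.0186) was lost in the count tests, at adjusted p = 0.0554 with edgeR and 0.0640 with DESeq2, and without the second NEET11-9 or NEET10-10 replicate 1 or 3. The fall in NEET5-4 (-0.73 ± 0.19, limma adjusted p = 0.00561) was lost in the same count tests, at 0.0799 and 0.102, and without the third NEET5-4 library. The related GLYI4 was called higher in NEET10-10 than in NEET11-9 by 0.34 ± 0.06 (limma adjusted p = 3.29e-05).

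CYP71B3, a cytochrome P450 oxygenase, was at 76.3, 91.3 and 89.7 in NEET11-9, 99.5, 91.1 and 115 in NEET5-4, and 215, 163 and 191 in NEET10-10. All 3 NEET10-10 libraries lay above the other 6, and the rise over NEET11-9 was 2.19-fold (log2 1.13 ± 0.13, limma adjusted p = 1.49e-07). CYP76C2, of another P450 family, was at a mean of 13.4 ± 1.94 in NEET11-9 and 12.4 ± 3.47 in NEET10-10 and was not called (adjusted p = 0.808, limma).

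Efflux carriers of the MATE family are represented by DTX1 and AT3G23550, and they differed in their NEET order. DTX1 was at a mean of 26.0 ± 6.67 in NEET11-9, 20.2 ± 1.3 in NEET5-4 and 71.8 ± 11.3 in NEET10-10, a rise of log2 1.45 ± 0.15 from NEET11-9 to NEET10-10 (limma adjusted p = 4.90e-08). AT3G23550 (chr3:8448273-8450799) was at 11.2, 9.21 and 10.6 in NEET11-9, 59.9, 75.5 and 70.1 in NEET5-4, and 15.3, 17.2 and 21.5 in NEET10-10. It was 6.13-fold higher in NEET5-4 than in NEET11-9 (2.62 ± 0.23, limma adjusted p = 1.07e-09), the largest such rise among the members. Its H89C steps were among the 5 most even of the members at 50 or more in H89C4-7, at 1.00, 1.02 and 0.85.

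ELI3-2 (AT4G37990, chr4:17855637-17857878), annotated as cinnamyl alcohol dehydrogenase 8, had the largest H89C difference. It was at 0, 1.07 and 0 in Col, 1.69, 0 and 1.71 in H89C23-10, 35.8, 22 and 30.5 in H89C11-7, and 881, 1330 and 1100 in H89C4-7. Its 1 read in Col against 3041 in H89C4-7 gives a ratio of 2750 with an exact 95% counting interval of 494 to 109000. In the 9 NEET libraries a single read was seen, in NEET11-9, so no NEET difference was detectable at this depth. AT5G16960, a zinc-binding dehydrogenase, was at 5.15, 3.35 and 2.45 in NEET11-9 and at 0, 1.03 and 0 in NEET5-4, a call of log2 -1.83 ± 0.39 (limma adjusted p = 0.000727) that rests on few reads.

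Oxidases and enzymes of secondary metabolism make up 6 members, 3 of them called higher in NEET10-10 than in NEET11-9. BCB (AT5G20230, chr5:6826365-6827748), a blue copper protein induced by stress and senescence, was at 648, 848 and 721 in Col, 846, 924 and 1090 in H89C23-10, 1410, 1410 and 1790 in H89C11-7, and 12200, 13100 and 12300 in H89C4-7. It was at 206, 167 and 233 in NEET11-9, 691, 779 and 716 in NEET5-4, and 672, 729 and 551 in NEET10-10. The upper NEET lines overlapped each other and the Col range, and NEET11-9 lay under all of them. BCB was 3.63-fold higher in NEET5-4 (log2 1.86 ± 0.12, limma adjusted p = 2.19e-12) and 3.22-fold higher in NEET10-10 (1.69 ± 0.12, limma adjusted p = 1.97e-11) than in NEET11-9.

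AT1G30720 and AT4G20860 are FAD-binding enzymes of the berberine bridge family. AT4G20860 was at a mean of 1290 ± 23.4 in NEET11-9, 1120 ± 55.1 in NEET5-4 and 2890 ± 128 in NEET10-10, with a rise of log2 1.17 ± 0.06 from NEET11-9 to NEET10-10 (limma adjusted p = 8.39e-15). AT1G30720 was at 392 ± 33.1, 353 ± 36.6 and 1060 ± 152 in the same order. Its H89C pattern was unlike most, with the smallest step last, at 0.73, 0.88 and 0.40. AT2G38240, an oxygenase dependent on 2-oxoglutarate and Fe(II), stood at 173, 267 and 212 in H89C4-7 and at 4.08 or less in all 9 NEET libraries.

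Heat shock and protein folding genes number 6. None was called higher in NEET10-10 than in NEET11-9 and 1 was lower, with a median of log2 -0.22, and 3 were lower in NEET5-4, with a median of -0.41. The upstream stretch of HSFA2, a heat-induced activator of heat shock genes, is shown because it carries GAANNTTC, the core of the heat shock element, at 2 places. It is chr2:11135504-11135623 on the plus strand of TAIR10.1 from RefSeq, and the capitals mark the motif.
HSFA2: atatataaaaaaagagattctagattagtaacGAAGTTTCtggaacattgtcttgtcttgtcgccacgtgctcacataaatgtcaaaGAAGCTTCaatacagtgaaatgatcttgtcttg
The nearer run lies 33 bases before the start. The motif, which reads the same on both strands, was in 10 of 87 member promoters, or 11.5%, and in 11.4% of all.

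HSFA2 (AT2G26150, chr2:11135624-11137792) was at 21.5, 12.9 and 17.2 in Col, 27.0, 25.5 and 27.3 in H89C23-10, 44.3, 43.1 and 47.8 in H89C11-7, and 155, 164 and 180 in H89C4-7. Its NEET values were 15.4, 35.2 and 18.8 in NEET11-9, 5.53, 0 and 5.93 in NEET5-4, and 9.19, 8.60 and 5.36 in NEET10-10. Every library of the upper NEET lines lay under every Col and NEET11-9 library. HSFA2 was lower in NEET5-4 by log2 -2.67 ± 0.45 (limma adjusted p = 4.97e-05) and in NEET10-10 by -1.41 ± 0.45 (limma adjusted p = 0.0208), the only member called lower there. Without the second NEET11-9 library the NEET10-10 call was lost, at -1.08 (adjusted p = 0.131, limma), and without the third NEET10-10 library it was -1.2 (adjusted p = 0.0858, limma).

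Fes1A (AT3G09350, chr3:2870970-2873332), an HSP70-binding protein, was at 177, 153 and 150 in NEET11-9, 108, 119 and 116 in NEET5-4, and 139, 139 and 129 in NEET10-10. NEET5-4 lay under both other lines with no overlap (log2 -0.48 ± 0.10 against NEET11-9, limma adjusted p = 0.000855), and the NEET10-10 difference of -0.23 ± 0.10 was not called (adjusted p = 0.0985, limma). Its H89C4-7 values were 788, 982 and 904 against 199, 144 and 162 in Col. Of the small heat shock proteins, AT1G59860 was lower in NEET5-4 than in NEET11-9 (log2 -0.94 ± 0.26, limma adjusted p = 0.00665) and higher in NEET10-10 than in NEET5-4 (0.73 ± 0.26, limma adjusted p = 0.0338). The latter call of AT1G59860 was lost in edgeR (adjusted p = 0.0787) and DESeq2 (0.0778) and without replicate 2 or 3 of NEET5-4 or replicate 1 or 2 of NEET10-10 (limma adjusted p from 0.0681 to 0.158). HSP17.6II and AT1G07400 were not called in any NEET pair. HSP17.6II was at 1.03 or less in all 9 NEET libraries.

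Of 14 further tested genes of the heat shock list, 13 were called higher and none lower in H89C4-7 than in Col, where 33.6% and 33.0% of all tested genes were, with a median of log2 1.45. The same 14 had 2 called higher and 9 lower in NEET10-10 against NEET11-9, where 14.3% and 13.7% were, with a median of -0.46. In NEET5-4 none was higher and 11 were lower, where 11.6% and 14.2% were, with a median of -0.87. The list was chosen with earlier results known, and these counts are a description.

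Seed storage proteins are a small group of 3, SESA1, SESA3 and CRU3, which fill the protein bodies of maturing embryos. The stretches upstream of SESA1 and SESA3 are shown because both have CACGTG, the G-box bound by bZIP and bHLH factors, at nearly the same place. They are chr4:13607209-13607328 and chr4:13611676-13611795 on the plus strand of TAIR10.1 from RefSeq, and the capitals mark the G-box.
SESA1: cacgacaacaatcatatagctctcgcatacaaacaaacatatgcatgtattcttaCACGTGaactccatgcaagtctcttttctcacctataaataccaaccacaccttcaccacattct
SESA3: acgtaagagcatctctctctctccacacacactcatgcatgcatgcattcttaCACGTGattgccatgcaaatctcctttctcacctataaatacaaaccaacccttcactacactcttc
The G-box lies 65 bases before the start in SESA1 and 67 bases before it in SESA3, and 3764 bases separate these genes. It was in 9 of 87 member promoters, or 10.3%, and in 8.9% of all, counting either strand.

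SESA1 (AT4G27140, chr4:13607329-13608031) had no read in any Col or NEET library. It was at 0.843, 7.93 and 13.7 normalized counts in H89C23-10, 33.7, 5.01 and 6.10 in H89C11-7, and 48.3, 30.3 and 77.9 in H89C4-7, so the first H89C11-7 library alone lies above all of H89C23-10. Taken against 3 reads per Col library, H89C4-7 was at least 11.8-fold higher. SESA3 (AT4G27160) was at 78.6, 45.4 and 107 in H89C4-7, had 1 read in Col and none in the NEET lines. CRU3 (AT4G28520), a cruciferin, was at 5.36, 64.3 and 2.45 in Col, 193, 108 and 263 in H89C4-7, and at 3.10 or less in all NEET libraries.

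The second Col library thus lay above the H89C23-10 range of 17.7 to 64.0 for CRU3. Over the whole dry seed list of 9 genes, the summed level was 88.3 to 271 in Col, 131 to 343 in H89C23-10, 198 to 567 in H89C11-7 and 348 to 804 in H89C4-7, against 168 to 214 in NEET11-9, 177 to 190 in NEET5-4 and 94.9 to 132 in NEET10-10. CRB and SESA1 were at 0 in Col, CRB, SESA1, SESA2 and SESA3 in NEET10-10, CRU3, SESA1, SESA2 and SESA3 in NEET11-9, and SESA1 and SESA3 in NEET5-4, while all 9 genes had reads in each H89C line. The part of dry seed RNA in the 3 members' values was not tested.

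Transcription and RNA factors number 10, of which 5 were called higher in NEET10-10 than in NEET11-9 and none lower. NAC047 (AT3G04070), a NAC factor, was at 151, 148 and 194 in Col, 218, 202 and 203 in H89C23-10, 279, 355 and 294 in H89C11-7, and 939, 1120 and 1100 in H89C4-7. It was at 96.1, 111 and 117 in NEET11-9, 111, 84.8 and 86.9 in NEET5-4, and 166, 144 and 195 in NEET10-10. NEET10-10 lay above the other NEET lines with no overlap and spanned the Col range, with a rise of log2 0.63 ± 0.13 over NEET11-9 (limma adjusted p = 0.000487). NAC003, of the same family, rose by 0.83 ± 0.16 (limma adjusted p = 0.000282).

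PMZ (AT3G28210, chr3:10520443-10521796), an AN1-type zinc finger protein induced by stress, was at 1500, 2170 and 1840 in H89C4-7 against 54.5, 32.1 and 36.8 in Col. Among the NEET lines it was at 24.0, 23.4 and 13.1 in NEET11-9, 24.9, 32.1 and 18.8 in NEET5-4, and 37.8, 29.3 and 36.6 in NEET10-10. The rise from NEET11-9 to NEET10-10 was log2 0.79 ± 0.24 (limma adjusted p = 0.0131), and it was lost without the third NEET11-9 library (0.52, limma adjusted p = 0.126) or the first NEET10-10 library (0.0502), and in edgeR (0.0691). DREB2C, an AP2-type factor of heat and drought responses, was at a mean of 32.6 ± 11.6 in NEET11-9 and 39.6 ± 13.4 in NEET10-10 and was not called between them (adjusted p = 0.371, limma), while H89C4-7 stood at 994 ± 117.

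SMZ (AT3G54990), an AP2-type repressor of flowering, was at 208, 201 and 203 in NEET5-4, below 273, 312 and 299 in NEET11-9 and 333, 302 and 293 in NEET10-10. The fall in NEET5-4 was log2 -0.53 ± 0.09 against NEET11-9 (limma adjusted p = 2.90e-05). AT4G28140 and AT3G22961 are the members that reached the H89C4-7 mean in NEET10-10. AT4G28140, an AP2-type factor, was at 15.3, 23.2 and 14.3 in NEET10-10 and at 12.1, 19.2 and 15.6 in H89C4-7, and rose by 1.87 ± 0.36 over NEET11-9 (limma adjusted p = 0.000232). AT3G22961, with an amphipathic helix domain, was at 34.7, 23.2 and 30.4 in NEET10-10 and at 25.4, 20.2 and 28.9 in H89C4-7.

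Signalling genes number 11, with 4 called higher in NEET10-10 than in NEET11-9, none lower, and a median of log2 0.70. RING1 (AT5G10380), a RING-type ubiquitin ligase linked to programmed cell death, was at 62.6, 66.4 and 85.8 in Col and 547, 683 and 607 in H89C4-7. It was at 46.3, 51.1 and 50.6 in NEET11-9, 46.1, 45.5 and 41.5 in NEET5-4, and 75.5, 90.3 and 101 in NEET10-10, a rise of log2 0.83 ± 0.14 over NEET11-9 (limma adjusted p = 5.26e-05). ACS7, an enzyme of ethylene synthesis, was at a mean of 14.0 ± 1.03, 8.76 ± 2.36 and 26.7 ± 6.74 in NEET11-9, NEET5-4 and NEET10-10, and rose by 0.86 ± 0.24 (limma adjusted p = 0.00872), a call lost without NEET10-10 replicate 3 (0.68, limma adjusted p = 0.062). All of these means lay under its Col mean of 31.5 ± 9.44.

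AT5G13370, a GH3 family protein, was at 781, 760 and 725 in NEET11-9, 604, 612 and 602 in NEET5-4, and 865, 834 and 816 in NEET10-10. The fall in NEET5-4 against NEET11-9 was log2 -0.32 ± 0.05 (limma adjusted p = 5.16e-05). The rise in NEET10-10 (0.15 ± 0.05, limma adjusted p = 0.0405) was lost in DESeq2 (0.0551) and without replicate 2 or 3 of NEET11-9 or replicate 1 or 2 of NEET10-10 (limma adjusted p from 0.0659 to 0.169). It was lost as well in limma with another scaling, a replicate block or only the groups compared (adjusted p from 0.0502 to 0.0716). GLR2.4, a glutamate receptor-like channel, was at 0.858, 1.67 and 2.45 in NEET11-9 and 13.3, 6.02 and 6.26 in NEET10-10 (log2 1.8 ± 0.35, limma adjusted p = 0.00032). 5PTASE11 (AT1G47510), a phosphatase of phosphoinositides, was at 221, 309 and 270 in H89C4-7 and at 8.94 or less in all NEET libraries. The kinase CPK17 and the receptor-like protein AT1G63590 were at means of 5.28 and 0.558 in NEET11-9, and neither was called in NEET10-10 against it.

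Genes of the cell wall and of secreted proteins number 12. Between NEET10-10 and NEET11-9, 2 were called higher and none lower, where 14.3% and 13.7% of all tested genes were, with a median of log2 -0.11. In NEET5-4 none was higher and 1 was lower, where 11.6% and 14.2% were, so these counts are close to or under those shares. EP3 (AT3G54420, chr3:20145905-20148266), a chitinase, was at 14.6, 19.3 and 25.3 in NEET11-9, 19.3, 11.4 and 14.8 in NEET5-4, and 62.3, 48.2 and 45.6 in NEET10-10. It rose 2.59-fold from NEET11-9 to NEET10-10 (1.38 ± 0.23, limma adjusted p = 4.41e-05), and 1596 of its bases are shared with SRS6 on the opposite strand. AT5G43570, a protease inhibitor of the potato type, was the other gene called higher, which it was not without NEET10-10 replicate 1 (0.69, limma adjusted p = 0.0522).

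BGLU11 (AT1G02850), a beta-glucosidase, was at 701, 685 and 720 in NEET11-9, 384, 414 and 421 in NEET5-4, and 578, 670 and 631 in NEET10-10. The fall in NEET5-4 was 1.73-fold (log2 -0.79 ± 0.07, limma adjusted p = 4.32e-10). AT2G33160, a polygalacturonase, was at 377, 334 and 353 in H89C4-7, at 1.79, 2.14 and 0 in Col and at 2.51 or less in the NEET libraries. AT5G58840, a subtilase, was at 226, 274 and 239 in H89C4-7 and at a mean of 9.72 ± 2.91, 9.81 ± 0.571 and 6.93 ± 2.94 in NEET11-9, NEET5-4 and NEET10-10. Neither gene was called in any pair of NEET lines.

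The 21 members of other or unknown function had 6 called higher in NEET10-10 than in NEET11-9 and none lower. AT2G18680 (chr2:8094614-8095779), an uncharacterised protein, was at 12, 6.7 and 13.9 in NEET11-9, 8.29, 6.21 and 2.96 in NEET5-4, and 57.2, 50.8 and 59.9 in NEET10-10. It rose 4.97-fold from NEET11-9 to NEET10-10 (log2 2.31 ± 0.26, limma adjusted p = 1.58e-07), the largest such rise among the members, and stood above its Col values of 21.5, 19.3 and 19.6. AT2G18670 on the same strand shares 210 of its bases, so their reads may have been split. AT4G39580, a kelch repeat protein, was at 9.44, 10.9 and 26.1 in NEET11-9, 19.3, 18.6 and 17.8 in NEET5-4, and 67.4, 61.9 and 38.4 in NEET10-10 (1.89 ± 0.28, limma adjusted p = 7.16e-06).

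AT4G15990, uncharacterised, had H89C steps of nearly equal size, at 0.54, 0.38 and 0.54. It was at 106, 115 and 120 in NEET11-9, 82.0, 79.7 and 104 in NEET5-4, and 174, 166 and 163 in NEET10-10. Its H89C4-7 values were 180, 190 and 198, above all 9 NEET libraries. The chloroplast-encoded ATCG01090 and ATCG00660 were not called between NEET lines. ATCG01090 was at 5.36, 4.28 and 0 in Col and at 6.02 to 21.8 over the NEET libraries.

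**Figure D4:**
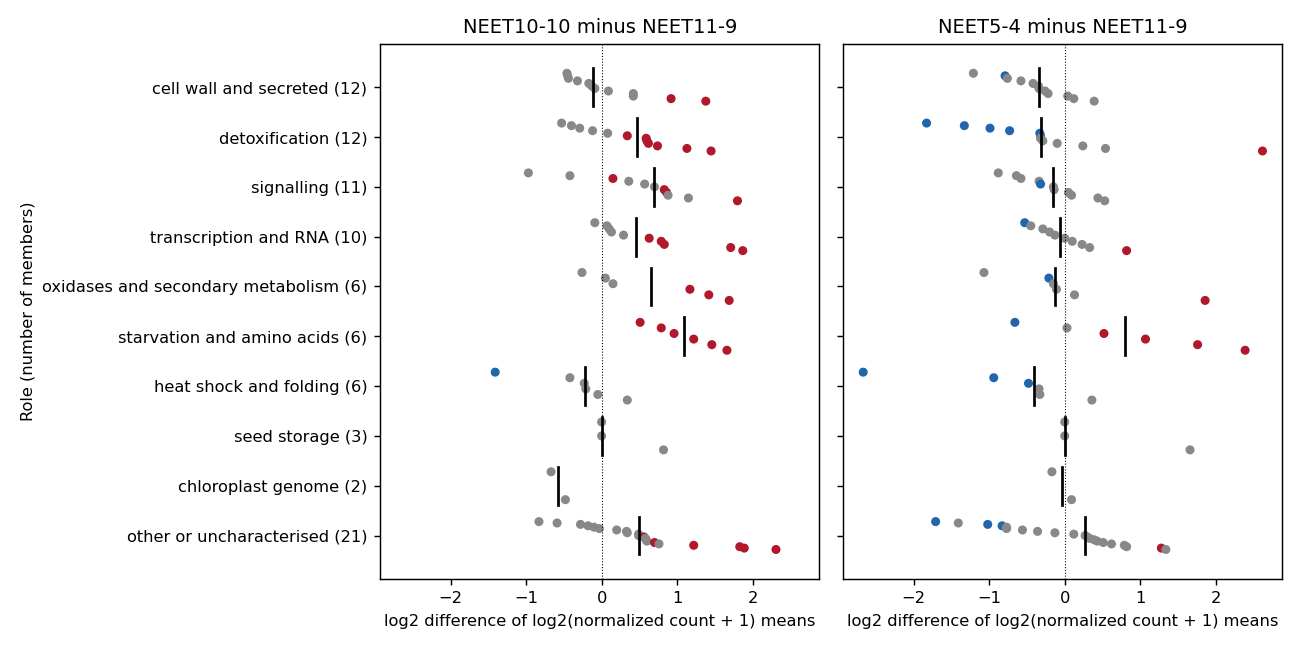
Difference between NEET lines in mean log2(normalized count + 1) (horizontal axes) for each member, by role (vertical axis, with the number of members); red points were called higher, blue points lower and grey points neither, and the black bar is the median. All 6 starvation and amino acid genes are red on the left, and 6 of 12 detoxification genes are blue on the right.

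Families were counted from the annotated product, which leaves DOGT1 out of the first. UDP-glycosyltransferases were 3 members (3.4%, against 0.53% of tested genes), and glycoside hydrolases were 4 (4.5% against 0.89%). Heat shock proteins and chaperones were 5, with the factor HSFA2 among them (5.6% against 1.08%), and NAC factors were 2 (2.2% against 0.28%). Counts this small shift with single genes. Uncharacterized proteins, a pattern added after the annotation was seen, were 11 members (12.4% against 5.69%). Protein kinases were 3.4% of members and 5.66% of tested genes. By product name, no member matched the glutathione S-transferases, the WRKY, MYB, bHLH or bZIP factors, the F-box proteins or the ribosomal proteins. The 2 chloroplast members had no product name to match, and a member named by another domain would be missed.

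The lists of iron and iron-sulfur genes held no member. Of 25 tested iron deficiency genes, 8 were called higher and 8 lower in H89C4-7 than in Col, where 33.6% and 33.0% of all tested genes were, so these counts were at the background. The same 25 had 8 higher and 8 lower in NEET10-10 against NEET11-9, where 14.3% and 13.7% were, and none higher and 11 lower in NEET5-4, where 11.6% and 14.2% were. Against the same H89C4-7 shares, 4 of 7 iron storage genes were higher and none lower, 21 of 27 genes of iron-sulfur cluster assembly were higher and 1 lower, with a median of log2 0.40, and 8 of 14 genes of mitochondrial retrograde signalling and alternative respiration were higher and 3 lower. In the NEET lines the iron storage list had 1 higher and 1 lower in NEET10-10 and none higher and 2 lower in NEET5-4, each against NEET11-9. The iron-sulfur list had 1 higher and 8 lower in NEET10-10 and 3 higher and 5 lower in NEET5-4. The retrograde list had 5 higher and 2 lower in NEET10-10 and none higher and 4 lower in NEET5-4.

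Other promoter motifs were searched in the same windows on both strands. The W-box TTGACC was in 21.8% of member promoters and 14.4% of all, ACGTGG, the core of abscisic acid response elements, in 18.4% and 10.9%, and TATCCA, the box of sugar-starved genes, in 17.2% and 16.5%. GCCGCC was in 5.7% and 2.6%, TGGGCC in 12.6% and 18.1%, AAACCCTA in 3.4% and 5.4%, and AAATATCT in 4.6% and 5.9%. The mitochondrial dysfunction motif was in 3 members, AT4G12735, AT5G24640 and HSP17.6II, or 3.4%, and in 0.7% of all. ACGTGG and CACGTG can overlap by most of their letters, and a match says only that the letters are there.

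The edge of the rule was crowded. Just inside stood AT5G48775, AT1G24147 and AT1G04880, whose smallest steps were 0.3011, 0.3020 and 0.3032. Just outside stood GDH2, AT4G33980 and AT1G05340, with 0.2998, 0.2992 and 0.2989. GDH2, a glutamate dehydrogenase of amino acid breakdown, had steps of 0.3, 0.401 and 1.186.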

How the data were processed

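RNA of whole seedlings was sequenced from TruSeq libraries, per the labels' protocols, in 21 libraries. Per the submitters' processing notes, STAR 2.4.0.1 was used with the TAIR10 build, beside FastQC 0.11.7 and DESeq2 1.20.0. How reads were assigned to genes, and whether strand or multiple positions were considered, is not given in the sources used here. The deposited signal values are counts per gene scaled by the authors, each library with a single size factor. Dividing by the smallest step of each library gave whole reads for 100% of values within a tolerance of 0.001, and these reads gave the library totals. Intervals and floors cover counting error only.

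Of 32833 genes, 20699 had at least 10 in 3 or more libraries. Tests used log2(value + 1), which understates the change of low genes, with limma 3.58.1 (R 4.3.3) on all 21 libraries, 1 mean per group and Benjamini-Hochberg adjustment over all tested genes. As alternatives on the recovered reads, edgeR 4.0.16 called 3158 genes higher and 3067 lower in NEET10-10 against NEET11-9, 2587 and 3029 in NEET5-4 against NEET11-9, and 3329 and 2691 in NEET10-10 against NEET5-4. DESeq2 1.42.0 called 2993 and 2754, 2382 and 2844, and 3184 and 2408. The script was tested on simulated data. Gene names, positions and promoters are from RefSeq TAIR10.1, in which 32548 of the gene IDs were found.

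The members and lists were chosen with earlier results of these data known. Named genes were the 12 largest H89C differences and the 5 most even steps among members with a mean of at least 50 in H89C4-7, up to 5 rises and 5 falls of each upper NEET line against NEET11-9 with no overlap, up to 4 members of each list and 3 of each family, and the genes at the edge of the rule. Other members were named after their values were seen. Other pseudocounts, filters, step sizes, scalings, fits and left-out libraries were tried as alternatives.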

Additional observations from a re-analysis of the deposited data

Results flagged for a closer look

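In 8 members the difference from NEET11-9 went in opposite directions in the upper NEET lines, each called higher in NEET10-10 and lower in NEET5-4 by limma. They were picked for these calls, so the distance between the upper lines, which is the sum of both differences, is given as a description and not as a test. On the log2 scale it was 2.12 for DIN2, 1.93 for DOGT1, 0.91 for UGT73B1, 1.35 for GLYI7, 3.14 for AT2G18680, 2.85 for AT1G24147, 1.37 for AT4G20860 and 0.47 for AT5G13370. The NEET5-4 calls of AT2G18680, AT1G24147 and GLYI7 against NEET11-9 were lost in edgeR, at adjusted p = 0.106, 0.14 and 0.0799, and in DESeq2, at 0.135, 0.166 and 0.102. GLYI7 also lost its NEET10-10 call, at 0.0554 in edgeR and 0.064 in DESeq2. AT5G13370 lost its NEET10-10 call in DESeq2, at 0.0551, but not in edgeR. In limma that call was lost with TMM, another scaling of the recovered reads (adjusted p = 0.0555). It was also lost there with a replicate block (0.0502) and with only the groups compared (0.0716). AT4G20860 lost its NEET5-4 call only without NEET5-4 replicate 2 (limma adjusted p = 0.0535). DIN2, DOGT1 and UGT73B1 kept both calls under every alternative run. With 3 libraries in a group, single libraries were not screened as outliers. Opposite calls of this kind were not counted over all tested genes.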

How the results depend on the processing

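The number of stepwise genes moved from 89 to 59 with a pseudocount of 5, 53 with at least 50 in 3 libraries, 194 with steps of 0.2 and 35 with steps of 0.5, and ranged from 81 to 96 with 1 library left out. Which genes passed changed more than their number. Of the 89 members, 68 were kept without Col replicate 3, 69 without H89C23-10 replicate 2 and 71 without H89C23-10 replicate 3. At most 81 were kept when 1 library was left out. Members stepwise in the NEET lines went from 6 to 3 with a pseudocount of 5, and to 10 and 2 with steps of 0.2 and 0.5 (5 to 7 with 1 library left out). Members lower in NEET10-10 than in NEET11-9 went from 1 to 0 with a pseudocount of 0.5, and ranged from 0 (without NEET11-9 replicate 2 or NEET10-10 replicate 3) to 2 (without NEET10-10 replicate 1 or 2). The other NEET counts ranged, with 1 library left out, from 29 to 33 higher in NEET10-10 against NEET11-9, from 7 to 8 higher and 13 to 18 lower in NEET5-4 against NEET11-9, and from 30 to 38 higher and 3 to 4 lower in NEET10-10 against NEET5-4.

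Against Col, fits on only the groups compared gave 0 lower in NEET10-10 in place of 6, 0 higher and 10 lower in NEET11-9 in place of 2 and 22, and 6 higher and 19 lower in NEET5-4 in place of 10 and 31. With at least 50 in 3 libraries, 1 member was higher in NEET11-9 and 5 in NEET5-4, and edgeR and DESeq2 each gave 6 higher in NEET5-4. With 1 library left out, NEET10-10 had 15 to 21 higher and 3 to 7 lower (3 without Col replicate 1, Col replicate 2 or NEET10-10 replicate 3), NEET11-9 had 2 to 5 higher (5 without Col replicate 3) and 18 to 21 lower, and NEET5-4 had 6 to 11 higher (6 without Col replicate 3 or NEET5-4 replicate 1) and 27 to 29 lower. Leaving out the first libraries of both Col and NEET10-10, an alternative chosen after seeing the data, gave 95 stepwise genes, 2 members lower in NEET10-10 than in NEET11-9 and 4 higher in NEET11-9 than in Col.

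Same-numbered libraries did not deviate together (correlations from -0.038 to 0.089), so the numbers do not pair them. With a replicate block, 32 members were higher and 1 lower in NEET10-10 against NEET11-9, 8 and 17 in NEET5-4 against NEET11-9, and 37 and 4 in NEET10-10 against NEET5-4. Over the 100 calls of single members between NEET lines, 122 alternatives lost a call, 1464 kept it and 0 reversed it, 73 calls were never lost, and the causes were not tested.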
